A study of Arabidopsis thaliana with 27 samples.

Results

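Arabidopsis plants at a late and an early stage of recovery from heat stress were compared directly, with 3 arrays of Recovery24 hr against 3 arrays of Recovery08 hr. These 6 arrays were chosen by their labels among the 27 Affymetrix ATH1 arrays of the series. All plants were wild type, of ecotype Col-0, and grew on agar plates at 22 °C with 16 h of light and 8 h of darkness a day. Plants of 18 days were kept at 38 °C for a day and then put back at 22 °C. Recovery24 hr plants were taken 24 h into recovery, at an age of 20 days, and Recovery08 hr plants 8 h into recovery, at an age of 19 days. By the study's methods the heat began 3 h after lights on, which puts the harvest of Recovery24 hr at 3 h and that of Recovery08 hr at 11 h of the light period. Unheated plants of both hours were measured as Control24 hr (9 arrays, plants of 18, 19 and 20 days) and Control08 hr (6 arrays, plants of 18 and 19 days). Length of recovery, hour of harvest and 1 day of age therefore differ together between the recovery groups and cannot be told apart by the recovery arrays alone. The labels call the tissue leaf, while the methods state that aerial parts were harvested, and the replicates are biological.

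Leaves that come out of heat clear heat shock proteins and damaged proteins, and resume the expression of genes for growth and for the chloroplast. Many of the same genes also follow the circadian clock, which includes morning-phased transcription factors such as CCA1 and evening-phased proteins such as GI, ELF3 and ELF4. A harvest at a single hour sees each of these genes at only a single phase of its daily cycle.

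The values were MAS5 signals, a linear intensity for each of 22746 probe sets, and differences are given on the log2 scale, Recovery24 hr minus Recovery08 hr. For the 13498 probe sets that averaged 100 or more over the recovery arrays, pairs of replicates differed with an SD of 0.383 to 0.574 (log2) in Recovery24 hr and of 0.325 to 0.702 in Recovery08 hr. In Recovery08 hr, replicates 1 and 2 were the closest pair, and both pairs with replicate 3 were at 0.610 or above. Photosynthesis genes were among the transcripts measured (LHCB4.1, a light-harvesting protein of photosystem II, had signals of 13208, 13032 and 17206 in Recovery24 hr and 9401, 10573 and 7751 in Recovery08 hr), as a leaf should show. Of 7 root, 5 flower and 4 seed markers, 2, 0 and 1 had a probe set with a gene name.

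The direct comparison called 1383 probe sets (6.08%) higher and 1130 (4.97%) lower in Recovery24 hr, at an adjusted p under 0.05 by limma and a difference of at least 2-fold. The genes that were higher included some of cell wall loosening, of plastidial fatty acid synthesis and, taken after the values were seen, of chlorophyll synthesis. Those that were lower included some mitochondrion-encoded genes and some ATG8 genes of autophagy. Of the probe sets called higher, 546 differed by at least 4-fold and 183 by at least 8-fold, and of those called lower, 255 and 57. The median size was 1.74 on the log2 scale for the higher and 1.40 for the lower ones. The signal was under 100 in both group means for 173 of the higher and 136 of the lower probe sets. On all 22746 probe sets the median difference was -0.03, and 8043 (35.4%) were at an unadjusted p under 0.05. Every Recovery24 hr array was above every Recovery08 hr array for 4428 probe sets (19.5%) and below for 5230 (23.0%), and the counts of members given further on are to be read against these shares.

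These calls depended on the arrays that entered the fit. Among the 2513 called probe sets, Recovery08 hr replicate 3 was the replicate nearest to the mean of Recovery24 hr in 1881 (74.9%), and Recovery24 hr replicate 1 was the replicate nearest to the mean of Recovery08 hr in 1563 (62.2%). Without Recovery08 hr replicate 3, limma called 2314 probe sets higher and 1785 lower. Without Recovery24 hr replicate 2, Recovery08 hr replicate 1 or Recovery08 hr replicate 2 it called none in either direction, with 6114, 5614 and 5894 probe sets at an unadjusted p under 0.05. Without Recovery24 hr replicate 1 it called 413 higher and 282 lower, and without Recovery24 hr replicate 3, 32 higher and 12 lower. With all 27 arrays in 1 fit, which estimates the spread from every group, 2230 were higher and 1473 lower.

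Against the controls of their own hour, the called genes stood apart mainly at Recovery08 hr. This comparison uses the same recovery arrays and is given as a description. Of the 1383 probe sets higher in Recovery24 hr, 1128 were called lower in Recovery08 hr than in Control08 hr, and 10 higher, with a median difference of -2.02. In Recovery24 hr, 149 of them were called lower and 190 higher than in Control24 hr, with a median of -0.08. Of the 1130 that were lower in Recovery24 hr, 888 were called higher and 1 lower in Recovery08 hr than in Control08 hr (median 1.74). In Recovery24 hr, 164 of them were called higher and 113 lower than in Control24 hr (median 0.16). Over all probe sets, 14% were called higher and 17.1% lower at Recovery08 hr, and 6.2% higher and 7.36% lower at Recovery24 hr, each against the control of its hour.

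The probe sets with the highest and lowest differences, among those annotated with 1 gene, were mostly loci known here by identifier only. AT3G15570 had signals of 840, 1089 and 1538 in Recovery24 hr and 4.67, 4.23 and 122 in Recovery08 hr (difference 6.39 ± 1.36 SE, adjusted p = 0.0392). AT4G30650 had 2467, 4300 and 5906 in Recovery24 hr and 73.8, 97.3 and 57.5 in Recovery08 hr (5.74 ± 0.39, adjusted p = 0.0129). AT5G16030 had 1954, 2895 and 3347 in Recovery24 hr and 37.2, 26.8 and 129 in Recovery08 hr (5.72 ± 0.63, adjusted p = 0.0155). In all of them every Recovery24 hr array was above every Recovery08 hr array, but the naming rule required groups that do not overlap. AT1G13650, AT5G48490, AT1G78995, AT1G26390 and AT1G49975 followed with differences of 5.29, 5.02, 4.99, 4.75 and 4.69.

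At the other end, AT3G19920 had signals of 2.83, 2.06 and 2.89 in Recovery24 hr and 215, 252 and 22.0 in Recovery08 hr (-5.37 ± 0.97, adjusted p = 0.0313). AT1G17960 had 13.6, 8.03 and 23.9 in Recovery24 hr and 522, 443 and 513 in Recovery08 hr (-5.16 ± 0.41, adjusted p = 0.0131). Signals this close to the lowest value of the arrays, 1, carry little order among themselves, so the size of such a difference is loosely known. The difference was better placed for AT3G60420, which had 618, 860 and 316 in Recovery24 hr and 7570, 6366 and 6385 in Recovery08 hr (-3.61 ± 0.39, adjusted p = 0.0154). DREB19, a transcription factor of the DREB family of drought and heat responses, had 111, 118 and 59.2 in Recovery24 hr and 1607, 1615 and 560 in Recovery08 hr (-3.62 ± 0.52, adjusted p = 0.0233). AT1G19500, AT4G39675, AT4G38780 and AT2G18190 had differences of -4.31, -4.31, -3.65 and -3.56.

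**Figure D1:**
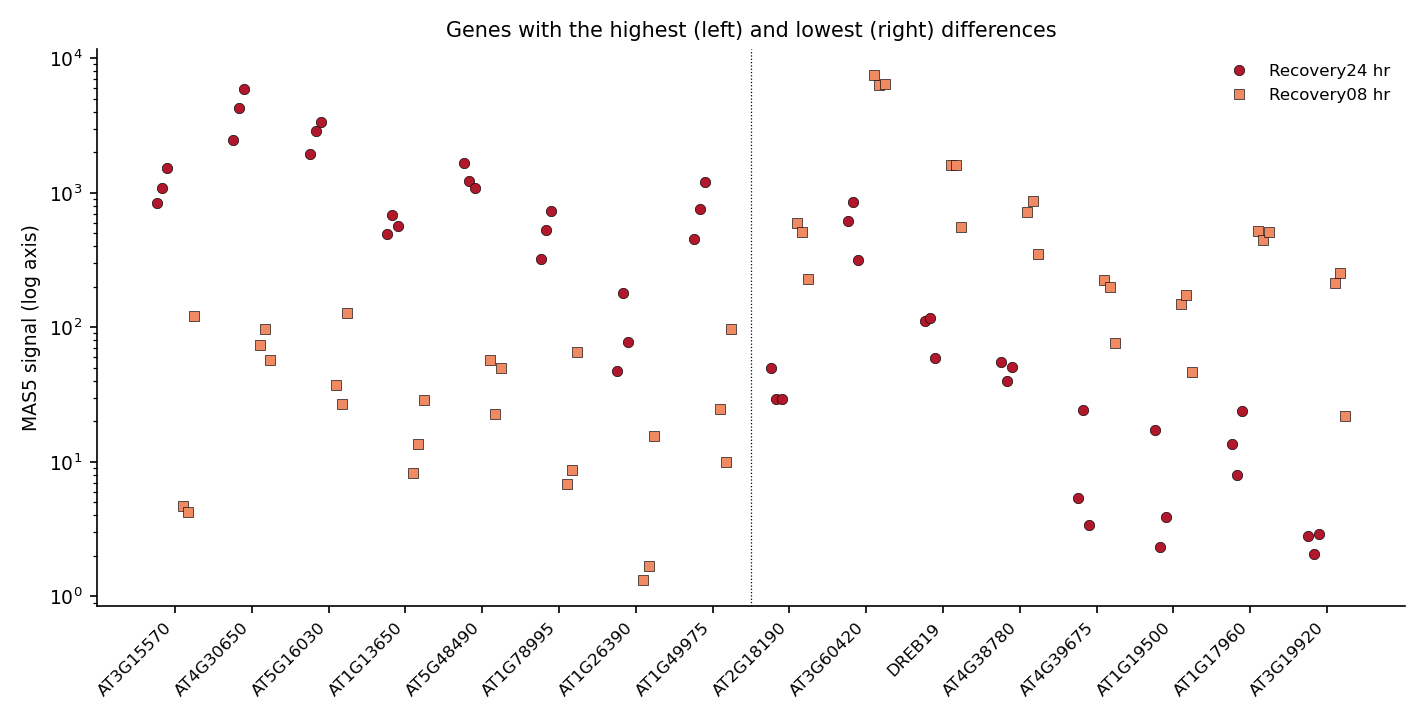
MAS5 signal (log axis) of the 8 genes with the highest and the 8 with the lowest log2 difference, with circles for the 3 Recovery24 hr arrays and squares for the 3 Recovery08 hr arrays. The groups do not overlap for any of these genes, which the naming rule required, and Recovery08 hr replicate 3 often lies nearest to the circles.

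Genes that differed between the hours in unheated plants showed little of that difference between the recovery groups, and some clock genes showed its opposite. In unheated plants 981 probe sets (4.31%) were higher and 897 (3.94%) lower in Control24 hr, at 3 h of light, than in Control08 hr, at 11 h of light. The recovery groups were harvested at the same hours, on other arrays, but did not differ in the same way. Of the 981 probe sets higher in Control24 hr, 93 (9.48%) were higher and 138 (14.1%) lower in Recovery24 hr than in Recovery08 hr, with a median difference of -0.10, where the controls had a median of 1.56. Of the 897 that were lower in Control24 hr, 175 (19.5%) were higher and 34 (3.79%) lower in Recovery24 hr, with a median of 0.31, where the controls had a median of -1.55. Across all probe sets the correlation of both differences was -0.104, and across the 1878 probe sets called between the controls it was -0.224. Probe sets share arrays and are not independent replicates, so no p is given for these.

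Taken array by array, the 981 probe sets had a median log2 signal over the mean of Control08 hr of 0.80, 0.72 and 0.85 in Recovery24 hr and 0.87, 0.89 and 0.95 in Recovery08 hr, against 1.49 to 1.64 in Control24 hr. For the 897 probe sets the same medians were -0.94, -0.70 and -0.63 in Recovery24 hr and -1.18, -1.21 and -1.10 in Recovery08 hr, against -1.65 to -1.34 in Control24 hr. Both recovery groups thus lay between the controls, and Recovery08 hr, harvested at the hour of Control08 hr, was the nearer of the 2 to Control24 hr on every array. The heat arrays had 0.22 to 0.29 in Heat08 hr and -0.38 to -0.20 in Heat24 hr for the 981 probe sets. For the 897 they had -1.03 to -0.98 in Heat08 hr and -1.23 to -1.10 in Heat24 hr, so Recovery08 hr stayed near the level of Heat24 hr there. The groups are taken here as labelled, and whether the labels or harvest hours of the recovery arrays are as given was not tested. It bears on the sign of every difference between the recovery groups.

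**Figure D2:**
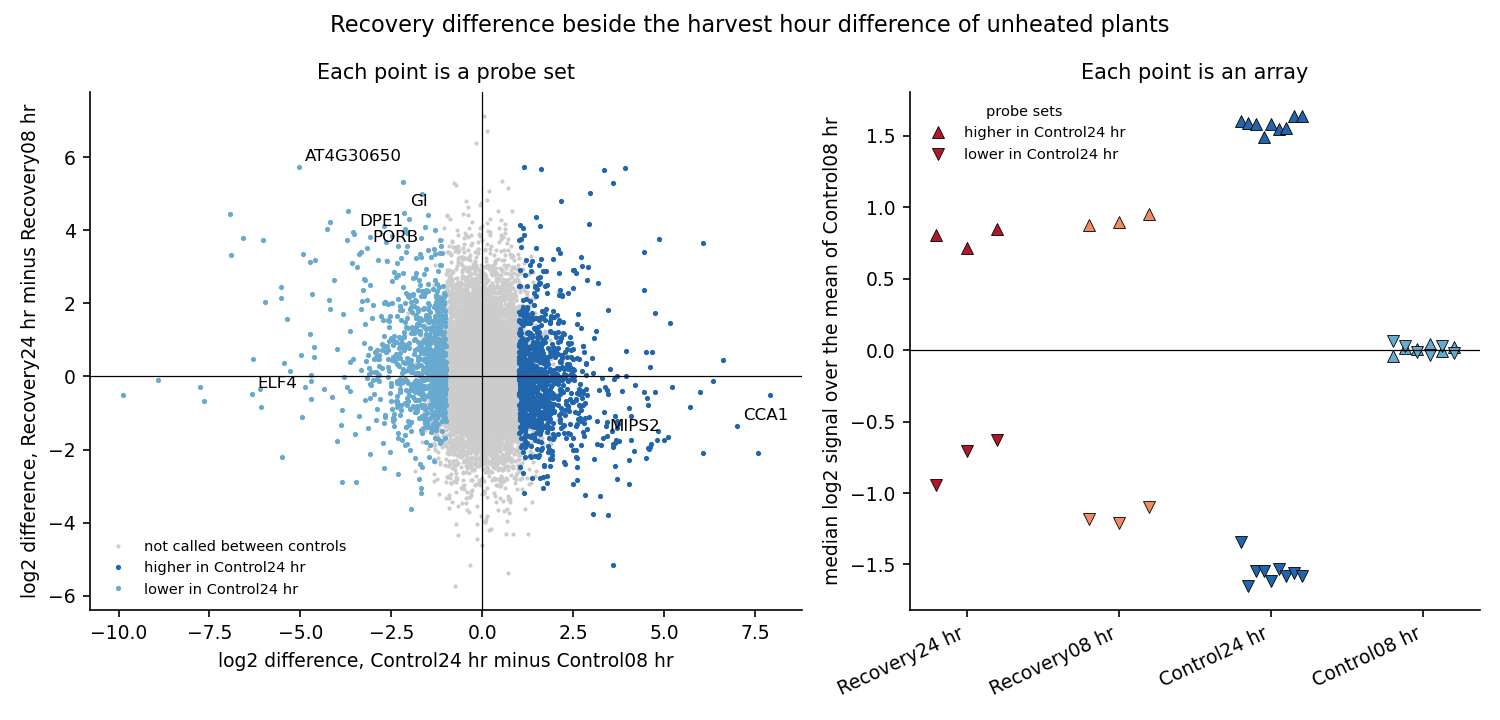
Left, log2 difference of each probe set between the recovery groups (Recovery24 hr minus Recovery08 hr) against that between the control groups (Control24 hr minus Control08 hr), with probe sets called between the controls in blue. Right, for each array, the median log2 signal over the Control08 hr mean of the 981 probe sets higher in Control24 hr (upward triangles) and the 897 lower in it (downward triangles). Both recovery groups lie between the controls, with Recovery08 hr nearer to Control24 hr.

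The difference between the recovery difference and the control difference was tested as an interaction. It was called higher for 2859 probe sets (12.6%) and lower for 2250 (9.89%). These counts changed little with the arrays in the fit, and stayed between 2589 and 3287 higher and between 1968 and 2615 lower when each recovery array was left out in turn. That fit takes its spread from 21 arrays, 15 of them controls, so stable counts do not show that the recovery replicates agree. With controls of the age of the recovery plants only, which was added once the data had been seen, 2517 were higher and 1987 lower.

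CCA1, the morning-phased transcription factor at the core of the clock, had signals of 1644, 884 and 727 in Recovery24 hr and 2684, 2745 and 2402 in Recovery08 hr. The groups did not overlap, but the direct difference of -1.36 ± 0.33 did not pass (adjusted p = 0.0508). In unheated plants CCA1 averaged 4167 ± 453 in Control24 hr and 41.6 ± 25.3 in Control08 hr (SD, n = 9 and n = 6). It was thus high in Recovery08 hr at an hour when the controls hardly expressed it, and the interaction was -8.36 (adjusted p = 2.33e-08).

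GI, an evening-phased clock protein that also acts in flowering time, showed the opposite. It had 638, 775 and 719 in Recovery24 hr and 39.2, 29.8 and 27.1 in Recovery08 hr (4.48 ± 0.21, adjusted p = 0.0118), with no overlap. The controls averaged 200 ± 46.1 in Control24 hr and 894 ± 241 in Control08 hr, and the interaction was 6.63 (adjusted p = 7.02e-12). Recovery08 hr thus had less GI transcript than either control.

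ELF4 and ELF3, partners in the evening complex of the clock, overlapped between the recovery groups. ELF4 had 86.3, 202 and 379 in Recovery24 hr and 299, 284 and 208 in Recovery08 hr, where Control24 hr averaged 43.0 ± 15.9 and Control08 hr 3293 ± 358. ELF3 had 215, 275 and 286 in Recovery24 hr and 296, 269 and 232 in Recovery08 hr, where Control24 hr averaged 72.1 ± 23.1 and Control08 hr 616 ± 34.9. The interaction was 5.87 for ELF4 (adjusted p = 2.82e-08) and 3.13 for ELF3 (adjusted p = 1e-06). These 4 were the genes of the clock lists, 21 loci in all, that had a named probe set.

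**Figure D3:**
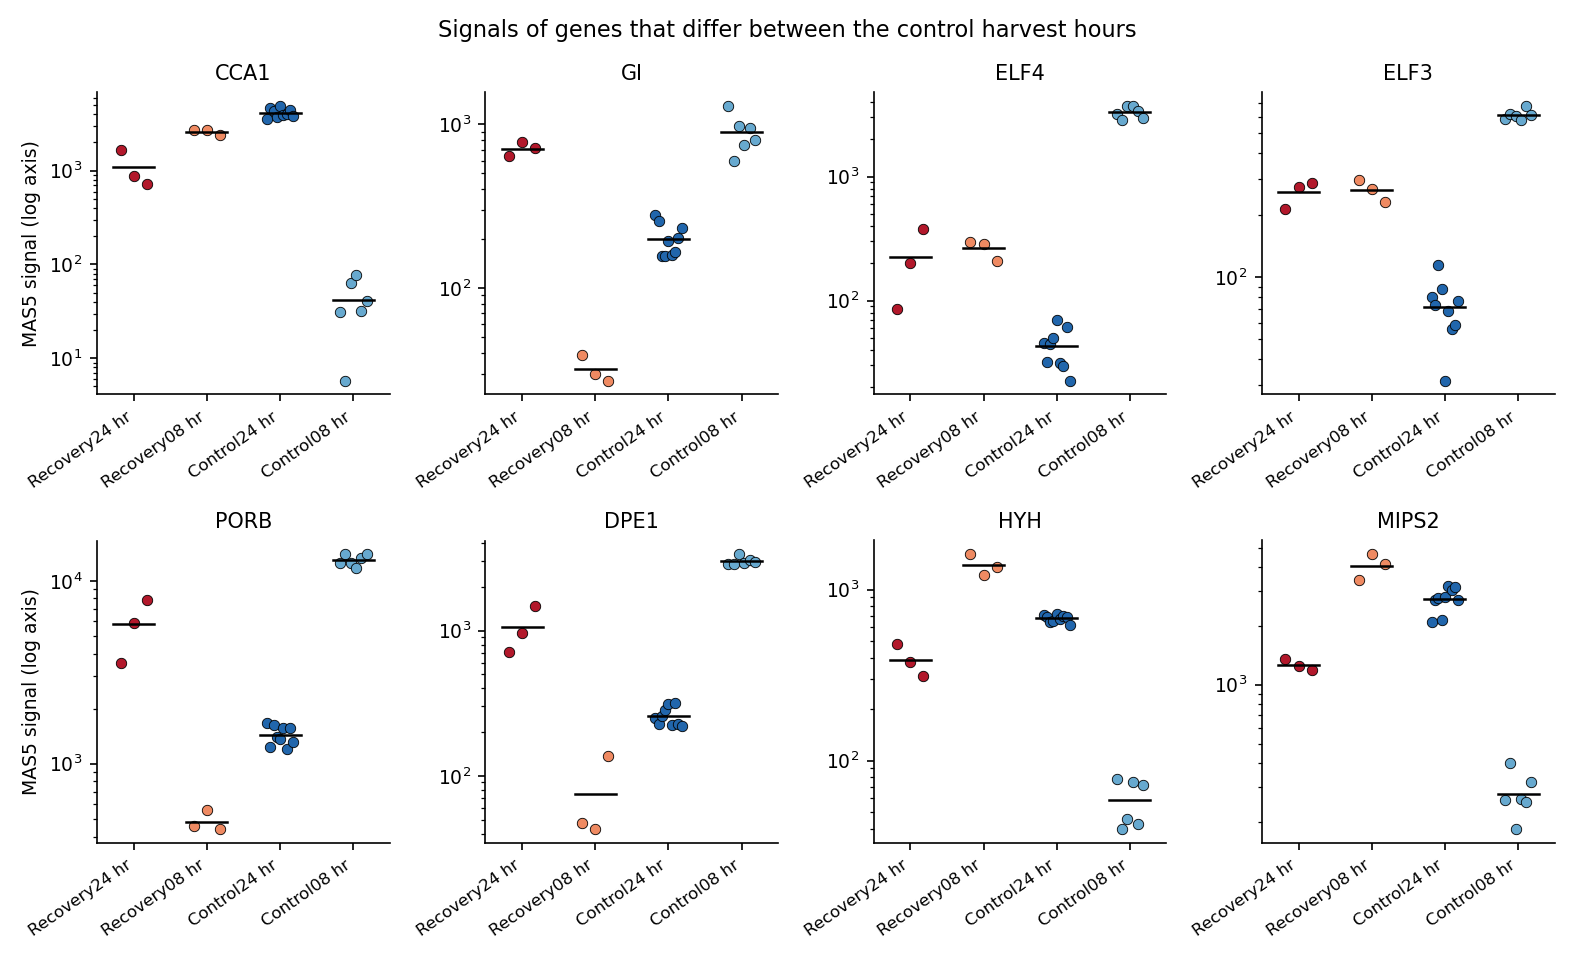
MAS5 signal (log axis) of 8 genes that differ between the control hours, with a point for each array and a bar for the mean of each group. CCA1, HYH and MIPS2 are higher in Recovery08 hr and in Control24 hr, GI, PORB and DPE1 are higher in Recovery24 hr and in Control08 hr, and ELF4 and ELF3 overlap between the recovery groups.

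Some genes outside the clock also differed in opposite directions between the recovery groups and between the controls. PORB, which makes chlorophyllide in the light, had 3548, 5880 and 7882 in Recovery24 hr and 455, 556 and 438 in Recovery08 hr (3.51 ± 0.33, adjusted p = 0.0136), while the controls averaged 1439 in Control24 hr and 12998 in Control08 hr. DPE1, the plastid disproportionating enzyme of starch breakdown, had 715, 967 and 1474 in Recovery24 hr and 47.4, 42.9 and 136 in Recovery08 hr (3.95 ± 0.53, adjusted p = 0.0214), while the controls averaged 258 in Control24 hr and 3007 in Control08 hr. PWD, which phosphorylates starch before its breakdown, was higher as well (1.61 ± 0.32, adjusted p = 0.0352), and BAM6, the third gene of the list of starch breakdown with a name, had a difference of 0.13. Every Recovery08 hr array of DPE1 lay below the means of both controls, while those of PWD, at 644, 699.6 and 877, lay a little above its mean in Control24 hr (629).

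In the other direction, MIPS2, a myo-inositol phosphate synthase, had 1361, 1240 and 1183 in Recovery24 hr and 3404, 4633 and 4121 in Recovery08 hr (-1.68 ± 0.19, adjusted p = 0.0162), while the controls averaged 2730 in Control24 hr and 278 in Control08 hr. HYH, a light-signalling transcription factor related to HY5, had 479, 377 and 311 in Recovery24 hr and 1609, 1210 and 1352 in Recovery08 hr (-1.85 ± 0.23, adjusted p = 0.0196). Its controls averaged 677 in Control24 hr and 58.8 in Control08 hr. SWEET2, a sugar transporter, and GR1, a glutathione reductase, were lower in Recovery24 hr, with differences of -1.62 and -1.32 (adjusted p = 0.0151 and 0.0204), and differed by 2.79 and 2.24 between Control24 hr and Control08 hr. HYH, SWEET2 and GR1 were picked with their values known.

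The interaction was highest for AT4G30650 (10.79), AT1G07050 (10.37), AT2G33830 (10.22), AT5G62360 (9.76), AT4G01130 (8.41) and AT3G62550 (8.31). All were lower in Control24 hr than in Control08 hr. For each of them every Recovery24 hr array was above every Recovery08 hr array, but the naming rule required groups that do not overlap. The direct difference of AT1G07050 did not pass (adjusted p = 0.0648). AT2G33830, for example, had 945, 1365 and 1594 in Recovery24 hr and 119, 157 and 109 in Recovery08 hr, with 69.4 on average in Control24 hr and 7914 in Control08 hr. Beside CCA1, the interaction was lowest for AT2G15020 (-6.55), AT1G68440 (-6.52), AT1G64500 (-6.49), AT5G01740 (-6.12) and AT3G19920 (-6.08). AT1G68440 had 446, 339 and 283 in Recovery24 hr and 2480, 2531 and 2378 in Recovery08 hr, with 858 in Control24 hr and 66.1 in Control08 hr on average. Its Recovery08 hr signals were thus above both controls.

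Gene lists were read against the 6.08% of probe sets called higher and the 4.97% called lower. Genes of cell wall expansion were higher, with 5 of 6 named members called and a median difference of 2.55. EXPA8, an expansin that loosens the wall, had 265, 529 and 769 in Recovery24 hr and 31.8, 24.3 and 39.4 in Recovery08 hr (3.93 ± 0.44, adjusted p = 0.0162), while the controls averaged 3645 in Control24 hr and 2320 in Control08 hr. XTH4, which cuts and rejoins xyloglucan, had 5761, 6265 and 6126 in Recovery24 hr and 898, 747 and 1996 in Recovery08 hr (2.46 ± 0.39, adjusted p = 0.0268). EXPA6 also rose (3.67 ± 0.82, adjusted p = 0.0427), and EXPA4, with a difference of 1.83, did not pass (adjusted p = 0.0777). For all 6, every Recovery24 hr array was above every Recovery08 hr array. The count was 2 without Recovery24 hr replicate 1, and 0 without Recovery24 hr replicate 2 or 3 or Recovery08 hr replicate 1 or 2.

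The families to which they belong were then taken by symbol, as far as probe sets had a name, after the values were seen. The probe sets of the cell wall list are among them. Of 16 probe sets for expansins, 5 were higher and none lower (median 1.16, with 8 at an unadjusted p under 0.05), and of 11 for xyloglucan endotransglucosylase/hydrolases, 5 were higher and none lower (median 1.34, with 8 at an unadjusted p under 0.05). XTH19 and XTH32 had the same sign between the controls as between the recovery groups. XTH32 had 3497, 3683 and 3729 in Recovery24 hr and 337, 117 and 1074 in Recovery08 hr (3.38 ± 0.79, adjusted p = 0.046), while the controls averaged 4409 in Control24 hr and 1016 in Control08 hr. Of 7 tubulins 3 were higher and 1 lower, and TUB5 had 912, 1416 and 1432 in Recovery24 hr against 164, 69.5 and 196 in Recovery08 hr.

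Chloroplast genes of the nucleus were higher as well, in part. Of 6 named members of the photosynthesis list 2 were called higher and none lower, with a median of 1.35. LHCB4.2, an antenna protein of photosystem II, had 7548, 10598 and 12857 in Recovery24 hr and 1059, 1049 and 869 in Recovery08 hr (3.35 ± 0.25, adjusted p = 0.0129), while the controls averaged 26632 in Control24 hr and 13552 in Control08 hr. PSAN, a subunit of photosystem I, had 6184, 7587 and 9707 in Recovery24 hr and 852, 1078 and 2434 in Recovery08 hr (2.56 ± 0.44, adjusted p = 0.0295). Every Recovery24 hr array was above every Recovery08 hr array for all 6, but LHCB4.1 (difference 0.65), PRK, a Calvin cycle kinase (1.19), and RCA, the activase of Rubisco (0.29), did not pass, nor did SBPASE of the same cycle (1.52). In RNA from whole aerial parts, fewer cells of a type and less RNA per cell cannot be told apart.

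Genes of tetrapyrrole and chlorophyll synthesis, taken by symbol after the values were seen, had 5 of 8 probe sets called higher and none lower (median 1.48), with PORB of the previous paragraphs among them. CHLI2, a subunit of the magnesium chelatase at the entry to the chlorophyll branch, had 963, 1180 and 1339 in Recovery24 hr and 138, 188 and 220 in Recovery08 hr (2.69 ± 0.25, adjusted p = 0.0136). HEME1 and HEME2, both uroporphyrinogen decarboxylases, differed by 1.97 and 1.93, and HEMB1, which forms porphobilinogen, by 1.02. Genes encoded in the chloroplast itself moved less, with 4 of 68 called higher, none lower and a median of 0.30. That share of calls was close to the 6.08% called higher over all probe sets. The plastid gene psaA, for a core protein of photosystem I, had 348, 492.7 and 273 in Recovery24 hr and 174, 149 and 137 in Recovery08 hr (1.24 ± 0.27, adjusted p = 0.0397), well under its controls, which averaged 1245 in Control24 hr and 1429 in Control08 hr.

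**Figure D4:**
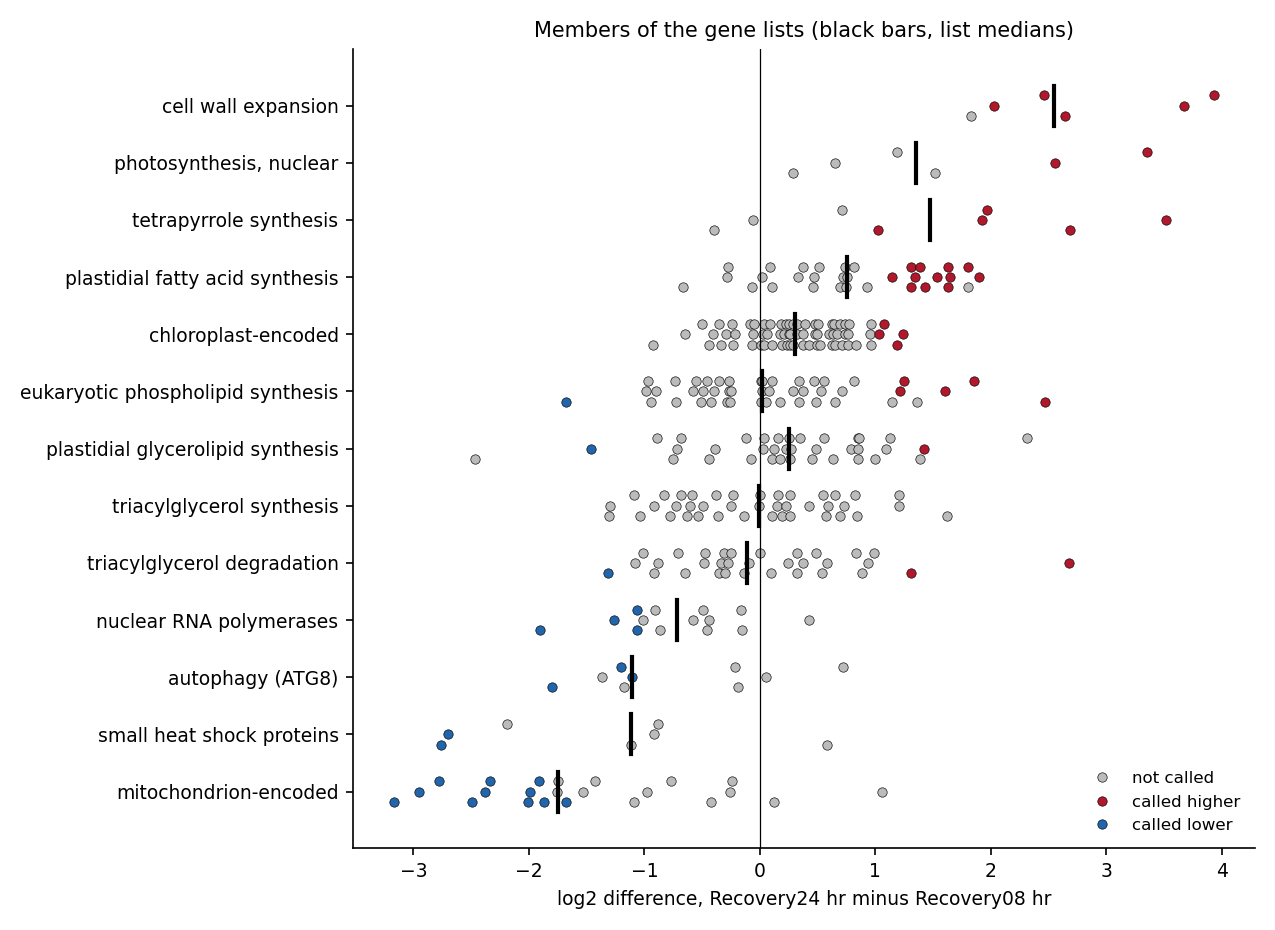
Log2 difference (Recovery24 hr minus Recovery08 hr) of every probe set in 13 gene lists and families, a point for each, with black bars for the list medians. Red points were called higher, blue ones lower and grey ones were not called. Medians lie at 2.55 for cell wall expansion, 0.75 for plastidial fatty acid synthesis, 0.00 for triacylglycerol synthesis and -1.75 for mitochondrion-encoded genes.

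Lipid genes were grouped as in the supplementary gene table of the study, which was written for these samples. Plastidial fatty acid synthesis, which builds acyl chains on acyl carrier protein from acetyl-CoA, had 12 of 32 probe sets called higher and none lower, with a median of 0.75. Some subunits of the plastidial pyruvate dehydrogenase and acetyl-CoA carboxylase, which feed the pathway, were among them, while PDH E1alpha (0.47), both probe sets of PDH E1beta (0.51 and -0.07) and the carboxyltransferase subunits CAC3 (0.82) and ACCD (0.33) were not called. LTA2, an E2 subunit of the dehydrogenase, had 2358, 2245 and 2134 in Recovery24 hr and 484, 498 and 1098 in Recovery08 hr (1.80 ± 0.36, adjusted p = 0.0352). CAC1A, a biotin carrier subunit of the carboxylase, had 2804, 2871 and 2735 in Recovery24 hr and 751, 800 and 1245 in Recovery08 hr (1.63 ± 0.24, adjusted p = 0.0242), with 3280 in Control24 hr and 2857 in Control08 hr on average. CAC2, the biotin carboxylase subunit, differed by 1.53. Within the elongation cycle the dehydratase HAD (AT2G22230) and the enoyl reductase MOD1 differed by 1.90 and 1.62. Also on the list, another probe set named HAD (0.76), KASI (0.75), KASIII (0.74), MCMT (0.72) and AT1G24360 (0.02) were not called. The other end of the list held ACC2, at -0.67 (adjusted p = 0.236). LTA2, CAC1A, CAC2 and MOD1 were named after their values were seen.

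Between the hours of unheated plants none of the 32 was called higher and 1 lower in Control24 hr, with a median of 0.02. The interaction was called higher for 13 and lower for 1 of the 32 (median 0.93). The direct comparison called 12 under quantile normalization and under median centring and 14 without Recovery08 hr replicate 3. It called 2 without Recovery24 hr replicate 1, and none without Recovery24 hr replicate 2 or 3 or Recovery08 hr replicate 1 or 2.

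The lists of eukaryotic phospholipids and of plastidial glycerolipids moved less and both ways. The eukaryotic phospholipid list had 5 of 46 probe sets called higher and 1 lower (median 0.02). FAD2, the desaturase that forms linoleate in the endoplasmic reticulum, had 5964, 5663 and 7703 in Recovery24 hr and 1822, 1889 and 1608 in Recovery08 hr (1.85 ± 0.19, adjusted p = 0.0151), while the controls averaged 6768 in Control24 hr and 10042 in Control08 hr. A probe set of PEAMT, which methylates phosphoethanolamine on the way to phosphatidylcholine, was higher by 2.47 (adjusted p = 0.0309), and MIPS2, given above, was the probe set that was lower. The list of plastidial glycerolipids had 1 of 36 called higher, LPAAT1, an acyltransferase of the plastid (1.42 ± 0.22, adjusted p = 0.0258), and 1 lower, FAD4, which forms the trans double bond of phosphatidylglycerol (-1.46 ± 0.28, adjusted p = 0.0345).

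Triacylglycerol synthesis had no call among 40 probe sets, with 6 at an unadjusted p under 0.05 and a median of 0.00. With all 27 arrays in 1 fit, 1 was higher and 1 lower. RD20, a caleosin of lipid droplets on this list, had 5850, 5179 and 5827 in Recovery24 hr and 5201, 6676 and 5074 in Recovery08 hr, above the means of its controls (3959 in Control24 hr and 689 in Control08 hr). Triacylglycerol degradation and beta-oxidation had 2 of 32 called higher, the thiolase KAT5 (2.67 ± 0.36, adjusted p = 0.0211) and the acyl-CoA oxidase ACX4 (1.31 ± 0.19, adjusted p = 0.0232). One was lower, CGI-58 (-1.31 ± 0.30, adjusted p = 0.0455), a hydrolase linked to lipid droplets. Of 6 genes of lipid trafficking none was called, with 1 at an unadjusted p under 0.05. The list of enzymes that elongate, desaturate or release plastidial acyl chains had 1 of 13 called higher, the desaturase DES5 (1.13), and none lower, with a median of 0.19. The tricarboxylic acid and glyoxylate cycles had 1 of 10 called higher and none lower (median 0.49). Of 11 other lipid-related genes 1 was higher and 1 lower, with a median of -0.09. The lower one was listed as the plastoglobule protein FIB1a (-1.30, adjusted p = 0.029). By the study's text its probe set also recognises FIB1b, so the 2 genes cannot be told apart. The gene that was higher, ADS1, a delta-9 desaturase, had 162, 292 and 364 in Recovery24 hr and 41.5, 39.4 and 36.5 in Recovery08 hr (2.72 ± 0.33, adjusted p = 0.0185), still under its controls of 1809 in Control24 hr and 602 in Control08 hr.

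Many mitochondrion-encoded genes were lower in Recovery24 hr. Of 23 probe sets for 16 genes, 11 were called lower and none higher, with a median of -1.75, and 18 had every Recovery24 hr array below every Recovery08 hr array (over all probe sets, 23.0% did). Several of these probe sets belong to the same gene, nad1 above all. The called ones were for nad1, nad5, nad6, nad4L, cox2, matR and ccb452. Among those not called, nad4, ccb382 and nad2 differed by -0.26, 0.12 and 1.06. nad5, a subunit of respiratory complex I, had 424, 196 and 219 in Recovery24 hr and 3311, 4154 and 954 in Recovery08 hr (-3.17 ± 0.64, adjusted p = 0.0364), against 58.4 ± 19.0 in Control24 hr and 70.5 ± 17.3 in Control08 hr. Its mean was 19100 in Heat24 hr. cox2, a subunit of cytochrome c oxidase, had 1080, 1106 and 467 in Recovery24 hr and 3867, 4074 and 2311 in Recovery08 hr (-2.01 ± 0.43, adjusted p = 0.0398). Every Recovery24 hr array was above both control means for nad5 and for cox2. Of the 23, 4 were called without Recovery24 hr replicate 1, and none without Recovery24 hr replicate 2 or 3 or Recovery08 hr replicate 1 or 2.

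Heat shock genes pointed down but few passed. Of 7 probe sets for small heat shock proteins, a list put together by locus, 2 were called lower and none higher (median -1.12). AT1G52560 had 709, 510 and 169 in Recovery24 hr and 2792, 3011 and 2280 in Recovery08 hr (-2.76 ± 0.55, adjusted p = 0.0359), against means of 15.9 in Control24 hr and 4.43 in Control08 hr. AT5G51440 was lower as well (-2.70 ± 0.57, adjusted p = 0.0387). AT1G53540, AT2G29500, HSP22.0 (AT4G10250) and AT5G37670 differed by -2.19, -1.12, -0.92 and -0.88 and did not pass, and AT4G21870 differed by 0.58. The 3 Recovery24 hr arrays were far apart in this list. For HSP22.0 they had 7918, 3619 and 1534 against 6923, 7818 and 5481 in Recovery08 hr, and the controls averaged 51.7 in Control24 hr and 38.0 in Control08 hr.

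Of 6 probe sets for heat shock factors and large chaperones none was called, with 4 at an unadjusted p under 0.05 and 3 lower with all 27 arrays in 1 fit. HSFA2, the factor that sustains the heat response, had 57.2, 2.58 and 23.1 in Recovery24 hr and 182, 199 and 34.7 in Recovery08 hr (-2.84 ± 1.31, adjusted p = 0.185), where Heat24 hr averaged 4930. Hop3, a co-chaperone of Hsp90, differed by -1.63 (adjusted p = 0.0761), AT5G48570 by -1.17, BOB1 by -0.95 and HSA32 by -0.58. AT3G09440 passed the adjusted p but not the fold (-0.88 ± 0.18, adjusted p = 0.0359). It had 909, 1148 and 999.9 in Recovery24 hr and 2050, 1829 and 1734 in Recovery08 hr, under its controls of 3594 in Control24 hr and 3057 in Control08 hr.

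**Figure D5:**
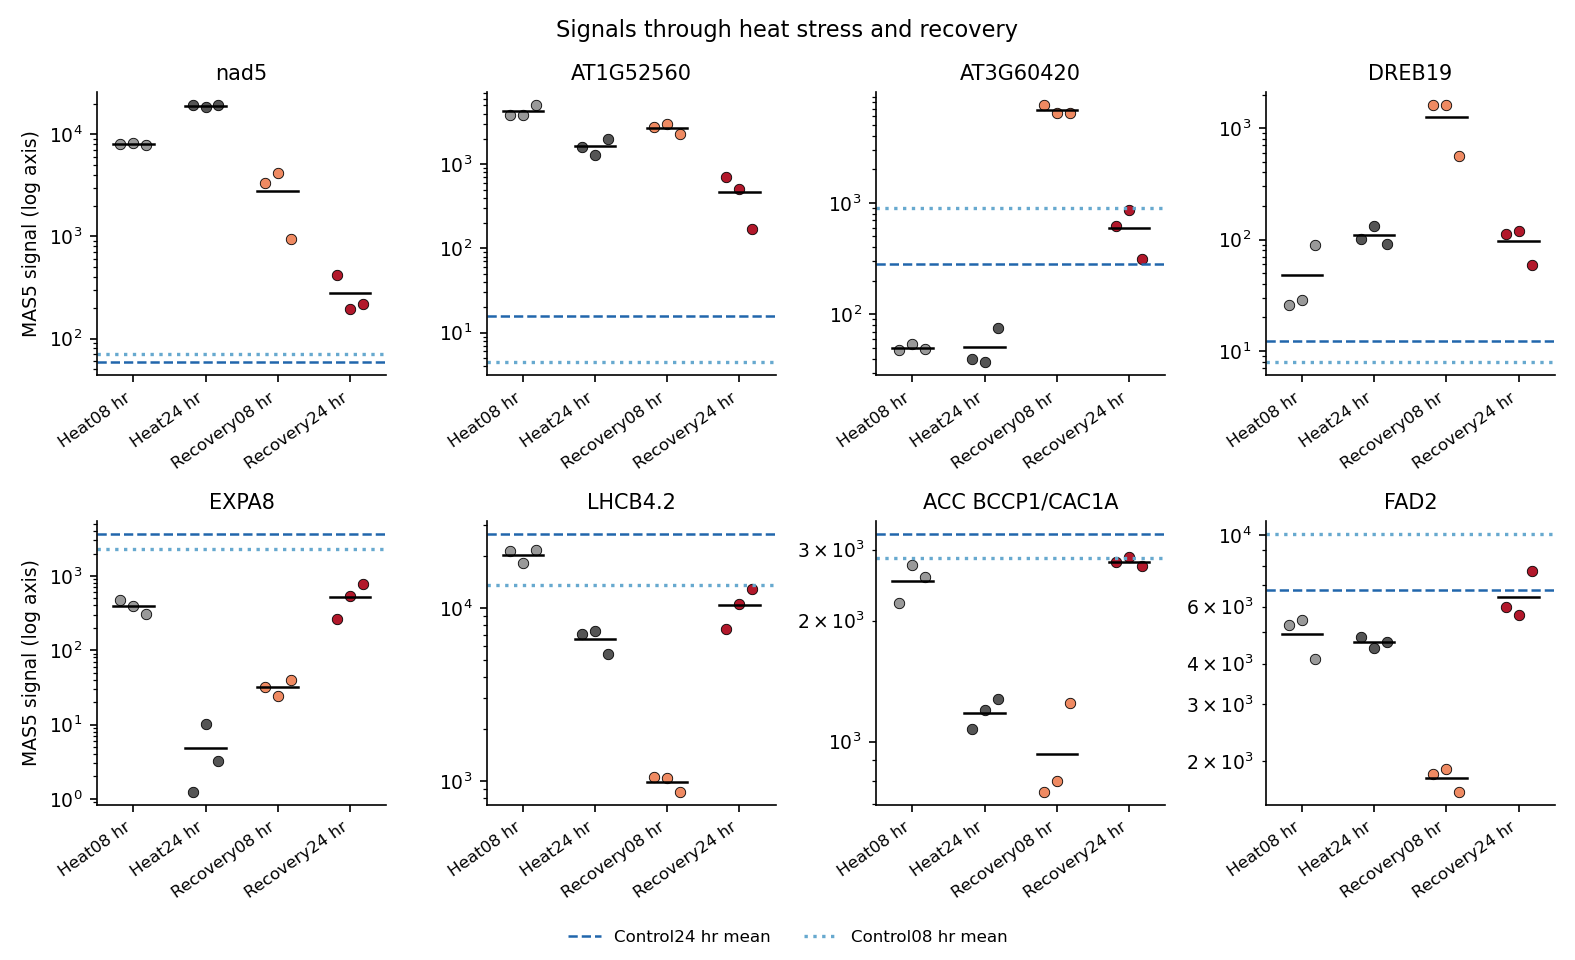
MAS5 signal (log axis) of 8 genes over the course of heat (at 8 h and 24 h) and recovery (at 8 h and 24 h), with a point for each array, a bar for each mean, and lines for the means of Control24 hr (dashed) and Control08 hr (dotted). nad5 is highest in Heat24 hr, AT3G60420 and DREB19 are highest in Recovery08 hr, and LHCB4.2, CAC1A (ACC BCCP1/CAC1A) and FAD2 are lowest in Recovery08 hr.

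Some genes of autophagy and of the endoplasmic reticulum stress response were lower. All 9 named probe sets of the autophagy list were ATG8 genes, whose products coat the autophagosome, and 3 were lower and none higher (median -1.11). None was called without Recovery24 hr replicate 1, 2 or 3 or Recovery08 hr replicate 1 or 2. Without Recovery08 hr replicate 3, 4 were called lower. ATG8B had 655, 487 and 627 in Recovery24 hr and 2906, 2258 and 1289 in Recovery08 hr (-1.80 ± 0.34, adjusted p = 0.0335), and ATG8A (listed as APG8A) and ATG8D differed by -1.11 and -1.20 (adjusted p = 0.0326 and 0.0319). ATG8D was also lower in Control24 hr (mean 272) than in Control08 hr (807), and its interaction of 0.37 did not pass (adjusted p = 0.0754 by limma). The interaction was -2.35 for ATG8B and -1.18 for ATG8A. ATG8F differed by 0.72 and did not pass (adjusted p = 0.0694). bZIP60, a membrane-tethered factor that is released when proteins misfold in the endoplasmic reticulum, had 1094, 810 and 620 in Recovery24 hr and 4062, 3584 and 1804 in Recovery08 hr (-1.86 ± 0.39, adjusted p = 0.0387). bZIP28, of the same kind, differed by -1.36 (adjusted p = 0.0486). PAG1 and RPN12a, subunits of the proteasome chosen after their values were seen, differed by -1.11 and -1.08, with signals of 2747 to 3689 and 1949 to 2483 in Recovery24 hr and of 6629 to 7024 and 4599 to 4793 in Recovery08 hr. Of 4 probe sets taken by symbol for 26S proteasome subunits, 2 were lower and none higher. Between the controls, 2 of the 4 were called higher in Control24 hr than in Control08 hr. Of 15 ubiquitin-conjugating enzymes 1 was higher (UBC29) and 2 were lower (UBC18 and UBC32), with a median of -0.06.

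Families of stress and detoxification genes moved both ways. STZ, a zinc finger repressor of the cold and dehydration list, had 253, 337 and 288 in Recovery24 hr and 2405, 2503 and 816 in Recovery08 hr (-2.55 ± 0.48, adjusted p = 0.0327), and was the 1 call among the 5 named members of that list. COR15A, COR15B and COR47, which protect cells in the cold, overlapped between the groups, with differences of 0.03, 0.58 and 0.39. Their controls averaged 3121, 461 and 1738 in Control24 hr and 22163, 14271 and 7078 in Control08 hr. The interaction was 2.88, 5.57 and 2.42 (adjusted p = 3.71e-05, 1.73e-07 and 7.82e-05 by limma). It was called higher for 4 and lower for 1 of the 5 members of the list. Of genes picked with their values known, WRKY33, a factor of defence responses, had 217, 255 and 295 in Recovery24 hr and 2091, 1959 and 594 in Recovery08 hr (-2.41 ± 0.53, adjusted p = 0.0414), and of 13 WRKY probe sets 3 were lower and 1 higher (median -0.25). TCH3, a calmodulin-like protein, differed by -2.10 (adjusted p = 0.021). UGT76B1, a glucosyltransferase of defence metabolism, had 162, 170 and 33.2 in Recovery24 hr and 1128, 739 and 1340 in Recovery08 hr (-3.42 ± 0.70, adjusted p = 0.0368), and of 47 UDP-glycosyltransferases 6 were lower and 1 higher (median -0.03). The tau class of glutathione S-transferases went both ways, with 3 of 18 lower and 2 higher (median -0.48). GSTU4 had 728, 670 and 292 in Recovery24 hr and 2454, 2386 and 2018 in Recovery08 hr, and GSTU20 had 4998, 4479 and 5880 in Recovery24 hr and 500, 389 and 1855 in Recovery08 hr.

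Of 14 probe sets for subunits of the nuclear RNA polymerases, a family also taken after its values were seen, 4 were lower and none higher (median -0.72). NRPC1, the largest subunit of RNA polymerase III, had 330, 250 and 190 in Recovery24 hr and 1111, 932 and 792 in Recovery08 hr (-1.90 ± 0.27, adjusted p = 0.023). Of 32 serine carboxypeptidase-like genes 9 were higher and none lower (median 0.96). Among them SCPL13 had 623, 898 and 1369.65 in Recovery24 hr and 32.7, 52.2 and 92.5 in Recovery08 hr (4.08 ± 0.48, adjusted p = 0.0177). STOMAGEN, a peptide that promotes stomata, differed by 2.88 (adjusted p = 0.0371). Of the genes of DNA replication, MCM5, PCNA2 and PRL differed by 0.73, 0.52 and 1.97 and did not pass, while AUR1, a mitotic kinase, and TOPII, a topoisomerase, both chosen after their values were seen, were higher by 1.58 and 1.52.

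A root marker moved with these results. PYK10, a beta-glucosidase typical of root endoplasmic reticulum bodies, had 1152, 1278 and 1092 in Recovery24 hr and 182, 98.0 and 136 in Recovery08 hr (3.12 ± 0.27, adjusted p = 0.0131). The other root marker with a name, EXPA7 of root hairs, stayed at 4.37 to 24.3 on all 6 arrays. The summed signal of both was 1102 to 1291 in Recovery24 hr and 122 to 187 in Recovery08 hr, against 675 to 1563 in Control24 hr and 989 to 1261 in Control08 hr. The seed marker OLE1 stayed under 100 on the recovery arrays. The lowest signal of the arrays was 1 and no detection calls were used, so whether EXPA7 and OLE1 were expressed at all was not settled. The part of root tissue in the differences was not tested.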

How the data were processed

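RNA of aerial parts was hybridised to ATH1 arrays, and the values used here were the signal intensities that the authors deposited, computed with MAS5 per their methods and processing notes and analysed by them in GeneSpring. No detection calls were used, no column was left out (0), and the number of arrays limits the precision. The log2 of the signal was fitted with limma 3.58.1 (lmFit and eBayes) in R 4.3.3, with Python 3.11.15, pandas 2.3.3, numpy 2.4.6 and matplotlib 3.10.9 for the rest. The direct comparison was fitted on the 6 recovery arrays, and the interaction on 21 recovery and control arrays. The Benjamini-Hochberg adjustment ran across all 22746 probe sets, and a call needed an adjusted p under 0.05 and a 2-fold difference. The scripts were tested on simulated data.

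Names came from the study's glycerolipid table for 228 probe sets, from the platform annotation for 13461 of the 14016 it lists, and from part of a whole-array table for 712, while 551 had several genes and 7794 no name here. In all 14380 had exactly 1 gene. The text names the 8 highest and 8 lowest differences and the 6 highest and 6 lowest interactions (1 gene, adjusted p under 0.05, arrays not overlapping, mean of at least 100 in the higher group), the clock and heat shock lists, and up to 4 genes of each other list, by the probe set of highest mean. Lists of at least 5 named members are described. Members and lists were chosen with earlier results of these data known. Alternatives were quantile normalization, median centring, a pseudocount of 16, a minimum mean signal of 100, all 27 arrays in 1 fit, a replicate block, eBayes with trend, and each recovery array left out. Promoter motifs were not analysed here.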

Additional observations from a re-analysis of the deposited data

Results flagged for a closer look

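The recovery difference differed from the control difference of the same hours for 2859 probe sets in the higher and 2250 in the lower direction, by limma's interaction term. Among the genes named, the interaction was 10.79 for AT4G30650, 10.37 for AT1G07050, 10.22 for AT2G33830, 9.755 for AT5G62360, 8.41 for AT4G01130 and 8.31 for AT3G62550. It was 6.63 for GI, 5.87 for ELF4 and 3.13 for ELF3. At the other end it was -8.36 for CCA1, -6.55 for AT2G15020, -6.52 for AT1G68440, -6.49 for AT1G64500, -6.12 for AT5G01740 and -6.08 for AT3G19920.

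Single control arrays lay far from the rest of their group in 23 of 274 tests, where chance gives about 1 in 20. In Control24 hr 1 array was high for PR1 (3598), PDF1.2 (817), AT1G26390 (245), AT3G60420 (863), EXPA8 (4875), Hop3 (131), LACS4 (3317), GSTU4 (253), TCH3 (997) and XTH19 (131), and low for APG8A (423) and IVD (221). In Control08 hr 1 array was high for BZIP28 (564), XTH4 (6289), ELF3 (681) and NDB2 (188), and low for EXPA4 (566), SAG101 (66.0), ACP4 (8270.28), FAD5 (3917), KAT2/PED1 (3733), APL3 (228) and MOD1 (1752).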

How the results depend on the processing

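The direct comparison of Recovery24 hr with Recovery08 hr depended on the arrays in the fit. Leaving out each recovery array in turn gave 0 to 2314 probe sets higher and 0 to 1785 lower by limma, with at least 5614 at an unadjusted p under 0.05 each time. The calls were none without Recovery24 hr replicate 2, Recovery08 hr replicate 1 or Recovery08 hr replicate 2. All 27 arrays in 1 fit gave 2230 higher. With a replicate block it called 0 higher and 0 lower (7300 at an unadjusted p under 0.05), where the samples share only a number. Same-numbered recovery arrays had deviations that correlated at r = 0.25, -0.15 and 0.23, and the numbers were not taken as pairs. Quantile normalization (1430 and 1166), median centring (1348 and 1161), a pseudocount of 16 (1721 and 1303), a minimum mean signal of 100 (1665 and 1315) and eBayes with trend (1971 and 1505) stayed within 1.5 times of 1383 higher and 1130 lower. The interaction and control counts stayed within 1.5 times in every alternative run, and no named gene changed the sign of a called difference. The interaction takes its spread largely from the control arrays. The median of the cold and dehydration list was 0.03, but -0.22 under quantile normalization and -0.01 under median centring. Signals near the lowest value, 1, bound the size of differences only loosely.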

Other observations

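Other families were taken by symbol with their values known. Of 6 alternative NAD(P)H dehydrogenases of the mitochondrion, which bypass complex I, 3 were lower and none higher in Recovery24 hr. NDB2 had 1517, 1135 and 843 in Recovery24 hr and 3034, 3291 and 2556 in Recovery08 hr (-1.38 ± 0.27 SE, adjusted p = 0.0342 by limma), and every Recovery24 hr array lay below every Recovery08 hr array. Of 5 arabinogalactan proteins of the cell surface 3 were higher and none lower, and of 22 beta-glucosidases 6 were higher and 2 lower. Of 23 trichome birefringence-like proteins 4 were higher and none lower (median 0.42). Of 20 CYP71B cytochromes P450 3 were higher and 1 lower (median -0.11). Of 5 genes of the dark and sugar starvation list 2 were higher, MCCB (1.16) and AT2G33830 (3.33), and none lower. Over all probe sets 6.08% were higher and 4.97% lower.

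Single genes of carbon metabolism were higher in Recovery24 hr. ISA1, a debranching enzyme of starch synthesis, had 723, 669 and 846 in Recovery24 hr and 149.9, 151 and 394 in Recovery08 hr (1.84 ± 0.42, adjusted p = 0.0448 by limma). HPR, the hydroxypyruvate reductase of photorespiration, had a difference of 1.24 (adjusted p = 0.044). PR1, a marker of salicylate responses, had 564, 2030 and 357 in Recovery24 hr and 57.5, 66.0 and 171 in Recovery08 hr. Its groups did not overlap, but the difference of 3.10 ± 0.77 did not pass (adjusted p = 0.0511).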
